A study of Mus musculus with 2 samples.

Results

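The keratin genes followed here across the skin of newborn mice were Krt6a, Krt6b, Krt16, Krt17, Krt75 and Krt79. They were taken by symbol, 6 of the 32285 genes in the count matrices, and the rule itself uses no measured value, although the set was drawn up with earlier results of these data known. Keratins are the intermediate filament proteins of epithelial cells, and each filament pairs a type I chain (here Krt16 and Krt17) with a type II chain (here Krt6a, Krt6b, Krt75 and Krt79). Krt6a, Krt6b, Krt16 and Krt17 are known as stress keratins: in resting skin they are found mainly in the hair follicle and other appendages, and the epidermis between follicles switches them on after wounding or barrier damage. Krt75 is the type II keratin of the companion layer, the sheet of flat cells between the outer and inner root sheaths of the follicle, and Krt79 marks the upper follicle and the duct of the sebaceous gland.

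The study made 2 single-cell RNA libraries from total dorsal skin of mice on postnatal day 3, with the epidermal and dermal cell suspensions mixed 30 to 70. The control library has the genotype label Wildtype and the other the genotype label miR-200b induced, and the treatment label is Dox (doxycycline) for both. The labels used here give neither the construct or promoter that drives the induction nor the number of animals in a library. The series title places the study in sebaceous gland fate and SOX9. There was 1 library per group, so each difference below is between these libraries, without a replicate check or a test, and every interval covers counting error only.

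The microRNA that was induced belongs to a family that holds messenger RNAs down by pairing its seed, bases 2 to 8, with their 3′ untranslated regions. Its mature sequence, from RefSeq, is shown with the seed in capitals because it sets which transcripts could be paired directly, and it lies at chr4:156055685-156055706 on the minus strand of GRCm38.

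mmu-miR-200b-3p: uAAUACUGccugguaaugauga

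The 7-base match of that seed, CAGTATT on the sense strand, was in the annotated 3′ untranslated region of 2518 of 20480 genes (12.3%) and in 0 of the 6 keratins. These regions are 143 bases long in Krt16, 185 in Krt17, 391 in Krt79, 506 in Krt6b, 557 in Krt6a and 1537 in Krt75. The absence of a match says only that these letters are not in these regions.

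All 6 keratins are protein-coding genes on the minus strand of GRCm38. The type I genes are neighbours on chromosome 11, Krt16 at 100246091 to 100248902 and Krt17 at 100256217 to 100261029, with 8 exons each. The type II genes lie on chromosome 15 and have 9 exons each: Krt75 at 101563345 to 101573904, Krt6b at 101676023 to 101680287, Krt6a at 101689910 to 101694307 and Krt79 at 101929332 to 101940324. Krt6a and Krt6b are near-copies, with 97.8% identity over their aligned coding bases. In the last 500 bases of their transcripts, where a 3′ library is read, identity over 460 aligned bases was 79.3% and the longest shared run was 22 bases. The last 500 bases of Krt16 and Krt17 shared a run of 55 bases. Some reads of these pairs could therefore have been left out or split by the authors' counting, and the division between Krt6a and Krt6b is uncertain to that extent.

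The control library held 9072 barcodes and 100409201 UMIs (unique molecular identifiers, each a counted RNA molecule), and the induced library 9114 barcodes and 119705137 UMIs. After filters and doublet removal 4816 and 4890 cells were kept, of which 3954 and 4100 were epithelial, with medians of 16062 and 21151 UMIs. The libraries shared 74 barcodes, 8 of them kept in both. Cell classes were rebuilt from marker genes without the 6 keratins, so each class name stands for "-like". Most epithelial clusters came from a single library, and 36.6% (control) and 38.0% (induced) of epithelial cells lay in clusters left unnamed. Gm13648, an annotated transcript that spans the miR-200b gene on chromosome 4, stood at 2.23 CPM (UMIs per 1000000 UMIs of the group) in control epithelial cells and at 529.5 CPM in induced ones, in the direction of the labels.

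A level in cells not known to make these keratins has to be read beside every value. Fibroblast-like cells carried 0.302 CPM (control) and 13.6 CPM (induced) of Krt6a, 2.72 and 33.6 CPM of Krt16, 46.5 and 182 CPM of Krt17, and 35.4 and 58.2 CPM of Krt79. These were 319 and 160 cells with medians of 10172 and 6554 UMIs. Melanocyte-like cells (79 and 238) showed the same order, with 45.1 and 128 CPM of Krt17. Among the 6 keratins, 2 passed a filter of 20 CPM in the mean of the libraries in each of these cell types. In fibroblast-like cells 1 was at least 2-fold higher in the induced library with 5 CPM added, where 7.36% of all genes were and 5.78% were as much lower. In melanocyte-like cells 2 were, where 2.1% of all genes were and 1.83% were as much lower. Levels elsewhere at or below those of the fibroblast-like cells of the same library were read as background, whose source (free RNA, remaining doublets or low expression) was not tested.

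Over all epithelial cells the stress keratins Krt16, Krt6a and Krt6b stood far higher in the induced library, Krt75 higher by a margin that rested partly on 1 cell, Krt17 modestly higher and the sum of Krt79 UMIs lower. Krt16 stood at 105 CPM in control and 744 CPM in induced cells, 7.09-fold higher (95% interval 6.93 to 7.25). Krt6a stood at 64.1 and 312 CPM, 4.87-fold higher (4.73 to 5.02). Krt75 stood at 18.2 and 47.7 CPM, 2.62-fold higher (2.47 to 2.78), but 1 induced cell held 1528 of the 4689 induced UMIs. Without the cell richest in Krt75 in each library the levels were 15.5 and 32.2 CPM, 2.08-fold higher. The most abundant of the 6, Krt17, stood at 3236 and 4670 CPM, 1.44-fold higher (1.44 to 1.45). Krt79 went the other way, at 2297 CPM in control and 1725 CPM in induced cells, 1.33-fold lower.

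Krt6b was almost absent from the control library. It had 62 UMIs in 7 of the 3954 control epithelial cells, and a single cell held 47 of the 62. In the induced library it had 6541 UMIs in 286 of 4100 cells. The levels were 0.803 and 66.6 CPM, an 82.9-fold ratio (64.6 to 108) whose control side rests largely on that cell. Without the richest cell of each library they were 0.195 and 59.3 CPM.

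Of the 6 keratins, all of which passed the same filter, 4 were at least 2-fold higher with 5 CPM added and 0 were at least 2-fold lower. Krt6b and Krt75 had under 20 CPM in control and passed through their induced level. Over the 5861 genes tested the same rule called 2.24% higher and 4.23% lower. By that ratio Krt6b ranked 3, Krt16 ranked 8, Krt6a ranked 16, Krt75 ranked 82 and Krt17 ranked 440 from the highest. The log2 ratio of the median gene was -0.105. The call of Krt75 did not hold without the richest cell of each library, when its log2 ratio with 5 CPM added was 0.86 and 3 keratins were at least 2-fold higher. With doublets kept, Krt75 also fell short of 2-fold, with a log2 ratio of 0.95. Without the granular cluster, which had 10 control and 128 induced cells, the Krt6b levels became 0.810 and 12.7 CPM and the Krt6a levels 64.6 and 234.5 CPM. Weighting each cell equally, in place of each UMI, gave Krt79 levels of 1592 and 1619 CPM, and without cluster E17, with 196 control and 10 induced cells, they were 1557 and 1670 CPM, so the direction of Krt79 turned with both. Krt75 stood at 4.68 and 5.08 CPM without cluster E21. Krt16 stood at 105 and 402 CPM without E5 and at 55.01 and 744 CPM without E15, and Krt6a at 31.7 and 292 CPM without E21.

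The share of cells in which a keratin was detected moved in the same direction as its level for Krt6a, Krt16, Krt17, Krt75 and Krt79. After each cell was thinned to 2000 UMIs, which left out 47 control and 261 induced epithelial cells, Krt16 was detected in 4.68% of control and 19.9% of induced cells. Krt6a was detected in 2.76% and 10.4%, Krt17 in 74.6% and 84.1%, Krt75 in 0.870% and 1.38%, and Krt79 in 34.8% and 22.5%. Without thinning the shares were 14.04% and 45.8% for Krt16, 5.77% and 26.8% for Krt6a, 89.8% and 98.0% for Krt17, 2.81% and 4.02% for Krt75, and 63.9% and 57.8% for Krt79. Thinned fibroblast-like cells had Krt16 UMIs in 0.314% and 9.49%, Krt6a UMIs in 0.314% and 3.65%, Krt17 UMIs in 11.01% and 31.4%, Krt75 UMIs in 0.314% and 1.46%, and Krt79 UMIs in 7.86% and 9.49%. Epithelial detection of Krt6a, Krt16, Krt17 and Krt79 was above that of fibroblast-like cells in both libraries. The induced Krt75 share over all epithelial cells was not.

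**Figure D1:**
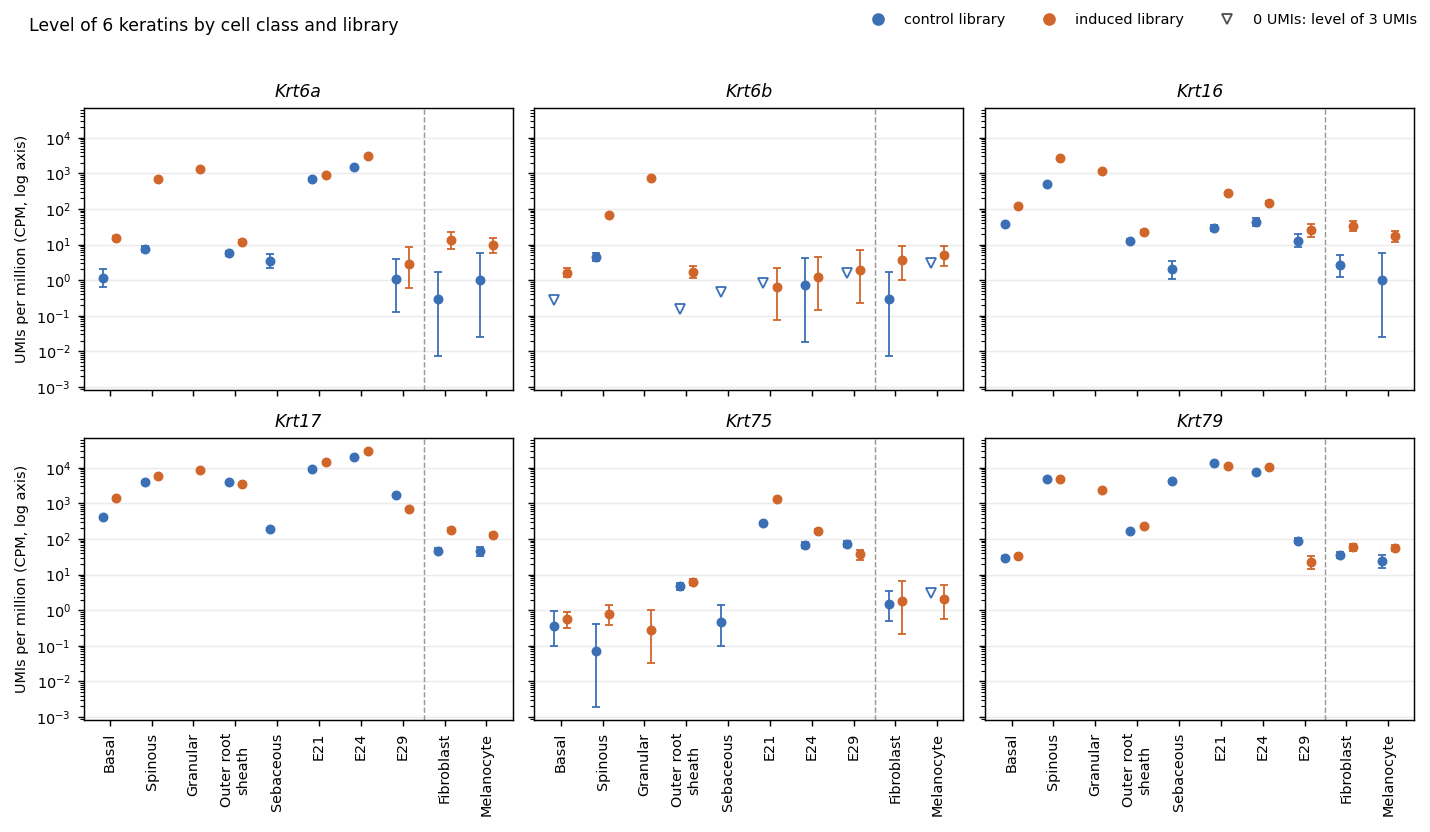
Level of each of the 6 keratins in CPM (vertical log axis) by cell class or cluster, with 95% Poisson intervals of counting error, for the control (blue) and induced (orange) library; groups under 30 cells are left out, open triangles stand for 0 UMIs and lie at the level of 3 UMIs, and cells right of the dashed line are not known to make these keratins. Krt6a of the spinous class stands at 7.64 and 704 CPM, while Krt79 of the outer root sheath stands at 168 and 231 CPM.

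In the basal layer of the epidermis, whose cells divide and anchor to the basement membrane, Krt17 stood higher in each induced cluster than in the control clusters, at levels above background. Basal cells numbered 552 in the control library (clusters E1 and E31, with 1 cell of E3 and 1 of E22) and 1185 in the induced library (E0, E3 and E22). Krt17 stood at 424 CPM in control and 1467 CPM in induced basal cells, 3.46-fold higher (3.36 to 3.56). The median basal cell had 74.9 CPM in control and 716 CPM in induced skin. The control clusters E1 and E31 had 421 and 436 CPM, and the induced clusters E0, E3 and E22 had 1756, 1031 and 1561 CPM. Each of these clusters came almost wholly from 1 library, and the share of all genes that part them in this way was not counted. Of the 6 keratins, 3 passed the filter in basal cells and 2 of them were at least 2-fold higher and 0 lower, where 2.05% of 5564 genes were higher and 3.02% lower. Thinned detection of Krt17 was 30.3% in control and 66.5% in induced basal cells, against 11.01% and 31.4% in fibroblast-like cells. Basal markers moved the other way. All 9 were at 20 CPM or more in each cluster, and they summed to 49268 and 43681 CPM in E1 and E31. In E0, E3 and E22 they summed to 25489, 27399 and 21646 CPM. The part of this difference in the Krt17 ratio was not tested.

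Basal Krt16 rested on a single cluster. It stood at 37.0 CPM in control and 118 CPM in induced basal cells, 3.18-fold higher. Cluster E3, led by Igfbp2, Nfkbia and Gadd45b with 1 control and 407 induced cells, had 273 CPM, whereas E0 had 35.02 CPM and E22 had 32.7 CPM. Without E3 basal Krt16 stood at 35.9 and 34.4 CPM, a log2 ratio of -0.06, with 1 keratin at least 2-fold higher, and the induced value was close to the 33.6 CPM of fibroblast-like cells. Early response genes moved with that cluster: 13 of the 14 on the list were at 20 CPM or more in E3, none was at 0, and they summed to 10252 CPM against 4109 CPM in E0 and 3560 CPM in E22. They summed to 13723 CPM in the control cluster E1, where Krt16 stood at 42.1 CPM. Their part in the Krt16 level was not tested.

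Krt6a was low in basal cells, at 1.18 CPM in control and 15.5 CPM in induced cells, against 13.6 CPM in induced fibroblast-like cells. By cluster it stood at 1.09 and 1.45 CPM in the control clusters E1 and E31 and at 7.24, 12.9 and 41.5 CPM in the induced clusters E0, E3 and E22. E22, a cluster led by the cell cycle genes Top2a, Cenpf and Mki67, held 236 of the 478 induced basal Krt6a UMIs, of which a single cell held 117. Without that cell E22 stood at 21.1 CPM, and after thinning 2.75% of its cells had a Krt6a UMI, fewer than the 3.65% of fibroblast-like cells. E0 and E3 were below the level of fibroblast-like cells. The other keratins were at background in basal cells. Krt79 stood at 29.4 and 33.8 CPM, below fibroblast-like cells in both libraries. Krt75 had 4 and 17 UMIs in all, and Krt6b had 0 UMIs in control basal cells, which allows up to 0.272 CPM, and 1.62 CPM in induced ones.

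In the suprabasal, spinous layer, where cells leave the basement membrane and switch to Krt1 and Krt10, the stress pair Krt6a and Krt16 stood far higher in the induced library. The class held 426 control cells, in clusters E15 (230) and E17 (196), and 342 induced cells, of which 332 were cluster E5 and 10 were in E17. Krt6a stood at 7.64 CPM in control and 704 CPM in induced spinous cells, 92.1-fold higher (75.9 to 113). It was detected in 4.70% of control and 66.4% of induced spinous cells, and after thinning in 1.42% and 37.2%. Both control clusters were low, at 1.65 CPM in E15 and 13.4 CPM in E17, and the induced cluster E5 stood at 695 CPM. In this class 5 of the 6 keratins passed the filter and 3 were at least 2-fold higher and 0 lower, against 2.77% of 4845 genes higher and 4.38% lower.

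Markers of differentiation stage moved with these spinous ratios. Of the 9 basal markers, 6 were at 20 CPM or more in control and 3 in induced spinous cells, with 0 absent from either, and they summed to 19728 and 2644 CPM. Krt5 stood at 3566 and 447 CPM, Krt14 at 12515 and 2077 CPM and Krt15 at 3357 and 17.6 CPM. By cluster the basal markers summed to 31736 CPM in E15, 8192 CPM in E17 and 2534 CPM in E5. The 12 granular markers summed to 371 CPM in E15, 3938 CPM in E17 and 2138 CPM in E5, with Flg at 5.25, 2007 and 31.4 CPM. No control cluster matched E5 in both lists, and the part of stage in the ratios of the class was not tested.

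Krt16, the type I partner of Krt6a, was already present in control spinous cells. It stood at 507 CPM there and at 2729 CPM in induced spinous cells, 5.38-fold higher (5.25 to 5.52). The median cell had 0 CPM in the control class and 1330 CPM in the induced class. By cluster the level was 634 CPM in E15, 385 CPM in E17 and 2777 CPM in E5, so the induced cluster was above both control clusters. Krt6b stood at 4.48 and 68.3 CPM, and the single control cell with 47 UMIs lay in E17. Without the richest cell of each library they were 1.04 and 60.4 CPM.

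Krt17 and Krt79 of the spinous class cannot be read as a single ratio, because the control clusters differed more than the libraries did. As a sum Krt17 stood at 4119 CPM in control and 5934 CPM in induced spinous cells, 1.44-fold higher, and Krt79 at 5004 and 4722 CPM. In the control library E15 had 111 CPM of Krt17 and 21.9 CPM of Krt79, the latter below fibroblast-like cells, and E17 had 7970 CPM of Krt17 and 9790 CPM of Krt79. The induced cluster E5 had 5517 and 4392 CPM. Within E5 Krt79 was split over cells: its 25th percentile was 0 CPM, its median 29.4 CPM, its 75th percentile 6149 CPM and its 95th percentile 30929 CPM. Krt17 in E5 was broader, with a 25th percentile of 498 CPM and a median of 2043 CPM, against a median of 27.6 CPM in E15.

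Upper follicle markers moved with these levels. Of the 8 on the list, 7 were at 20 CPM or more in E17, 5 in E5 and 4 in E15, with 0 of them absent from any of the 3 clusters. They summed to 8987 CPM in E17, 2060 CPM in E5 and 330 CPM in E15, and Cst6, a protease inhibitor of the follicle opening, stood at 6744 CPM, 397 CPM and 65.7 CPM. In E5 the highest was Ly6g6c, at 1152 CPM, which also led this list in the granular cluster E28, at 3339 of 5439 CPM. The E5 sum is therefore not a measure of upper follicle content alone. The part of these markers in the levels of Krt17 and Krt79 was not tested. Without E17, a comparison of E15 with E5 chosen after the data were seen, Krt17 stood at 111 and 5517 CPM and Krt79 at 21.9 and 4392 CPM. E15 and E5 differ in stage as well, with 6666 and 442 CPM of Krt5 and 19319 and 1972 CPM of Krt14. With genes centred within each library before clustering, spinous Krt17 stood at 201 and 3080 CPM and Krt79 at 29.1 and 386 CPM. Without E15 in place of E17, Krt17 stood at 7970 CPM in control and 5934 CPM in induced spinous cells, and Krt79 at 9790 and 4722 CPM. The directions for Krt17 and Krt79 therefore turned with the clusters that were compared, whereas Krt6a and Krt16 were higher in the induced library under every alternative run.

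**Figure D2:**
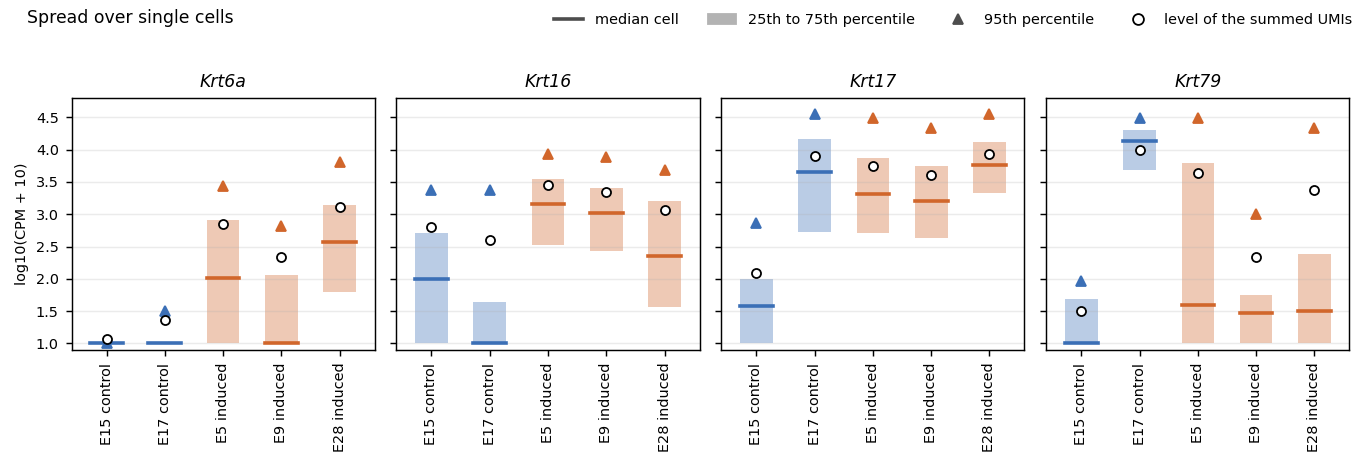
Spread over single cells of Krt6a, Krt16, Krt17 and Krt79 in the control clusters E15 and E17 (blue) and the induced clusters E5, E9 and E28 (orange), on a log10 axis with 10 CPM added; boxes span the 25th to 75th percentile of cells, bars are medians, triangles the 95th percentile and open circles the summed level. Krt79 in E5 has a median of 29.4 CPM beside a summed level of 4392 CPM.

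A definition of suprabasal cells by Krt1 and Krt10, in place of the class names, gave the same direction for the stress keratins. It still drew only on cells of clusters called epithelial. Among these, cells in which Krt1 and Krt10 together reached 10000 CPM, a cut set after the data were seen, numbered 261 and 633, with 117 and 327 cells between 5000 and 20000 CPM. In them Krt6a stood at 19.7 and 840 CPM, Krt6b at 5.87 and 287 CPM, Krt16 at 601 and 2314 CPM, Krt17 at 2663 and 5544 CPM, and Krt79 at 2814 and 2986 CPM. Here 5 of the 6 keratins passed the filter and 4 were at least 2-fold higher and 0 lower, against 3.9% of 4767 genes higher and 4.15% lower. Of the 205 control Krt6a UMIs 1 cell held 165, and without the richest cell of each library Krt6a stood at 3.88 and 813 CPM and Krt6b at 1.37 and 255 CPM.

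These cells were not alike in the libraries. Of the control cells 94.3% were spinous (59.4% in E15 and 34.9% in E17) and 2.30% granular, and of the induced cells 49.1% were spinous, 19.4% granular, 25.3% in the low-depth cluster E14 and 5.85% in E9. The granular cells held 5382 of the 6372 Krt6b UMIs and 9296 of the 18673 Krt6a UMIs of the induced cells, but 8094 of the 51420 Krt16 UMIs. Under 2000 UMIs there were 8 control and 165 induced cells. The part of this make-up in the ratios was not tested.

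Further up, in the granular layer, where Lor and Flg build the cornified barrier, the libraries could not be compared in the clustering used here, because the class held 10 control and 128 induced cells. With genes centred within each library before clustering it held 53 and 123 cells, whose keratin levels are not given here. In the induced granular cells, cluster E28, Krt6b reached 745 CPM, its highest level in any cluster of 30 or more cells, beside 1291 CPM of Krt6a. These summed levels lay in part of the cells: the median cell had 6.01 CPM of Krt6b and 367 CPM of Krt6a. The 95th percentile was 3920 and 6456 CPM, and 50% of cells had a Krt6b UMI. Of the UMIs of Krt6a and Krt6b together, 63.4% were Krt6a in E28, compared with 90.9% in E5 and 97.9% in E9. Krt16 was lower in E28 than in E5, at 1140 CPM against 2777 CPM, and Krt17 was higher, at 8593 CPM against 5517 CPM. In the 10 control granular cells Krt6a and Krt6b had 0 UMIs, which allows up to 4.66 CPM, and Krt17 stood at 4298 CPM.

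E9, an unnamed induced cluster led by Krt16 and Clca3a2 with 7 control and 269 induced cells, carried both basal and early suprabasal keratins. It had 7713 CPM of Krt5, 16505 CPM of Krt14, 2597 CPM of Krt1 and 1825 CPM of Krt10. Krt16 stood at 2185 CPM in it, Krt17 at 4086 CPM, Krt6a at 205 CPM and Krt79 at 210 CPM. Krt16 made up 34.8% of the summed UMIs of Krt16 and Krt17 in E9 and 33.5% in E5, compared with 85.04% in the control cluster E15 and 4.61% in E17.

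The outer root sheath, the follicle layer continuous with the basal epidermis, is a resting site of Krt17, and its level there was almost equal in the libraries. Krt17 stood at 3878 CPM in 1311 control cells and 3564 CPM in 882 induced cells, 1.09-fold lower, and was detected after thinning in 99.0% and 97.5%. Its direction turned when cells were weighted equally (4166 and 4187 CPM), at a coarser clustering (3860 and 3931 CPM) and without cluster E27 (3878 and 3981 CPM). Krt79 stood at 168 and 231 CPM, 1.38-fold higher (1.31 to 1.44), and was detected after thinning in 13.8% and 21.4%, but this difference rested on cluster E18. E18, with 0 control and 189 induced cells, had 571 CPM and held 1614 of the 3856 induced UMIs. Without it Krt79 stood at 168 and 162 CPM, a log2 ratio of -0.05, and the induced clusters E8, E23 and E27, at 206, 127 and 168 CPM, overlapped the control clusters E2, E4, E7 and E30, at 171, 223, 138 and 348 CPM. The control cluster E20, with 166 control cells, lay below the class level. It held 59 of the 3240 control UMIs, and with E20 left out in place of E18 Krt79 stood at 179 and 232.5 CPM. Krt6a at 5.64 and 11.7 CPM, Krt16 at 12.7 and 22.6 CPM and Krt75 at 4.66 and 6.29 CPM were low, and in the induced library Krt6a and Krt16 were below the level of fibroblast-like cells. Of the 6 keratins, 2 passed the filter in this class; 0 were at least 2-fold higher, where 2.29% of 6124 genes were, and 0 at least 2-fold lower, where 2.61% were.

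Cells of the sebaceous gland, which fill with lipid, expressed a single keratin of the 6 at a high level. In 210 control cells Krt79 stood at 4350 CPM and was detected after thinning in 100% of them (98.2% to 100%). Krt17 stood at 188 CPM, and Krt6a, Krt16 and Krt75 were at 3.48, 2.06 and 0.475 CPM. The induced library had 3 such cells, so no comparison was made. These control sebaceous cells held 15.5% of all control Krt79 UMIs in epithelial cells.

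Krt75, Krt6a, Krt17 and Krt79 met in small follicle clusters with cells from both libraries. No marker outside Krt75 was at hand for the companion layer, so these clusters keep their numbers. E21, led by Krt25, Krt71 and Krt75 with 79 control and 108 induced cells, held 75.5% of control and 89.7% of induced Krt75 UMIs. Krt75 stood at 288 CPM in its control cells and 1317 CPM in its induced cells, 4.58-fold higher (4.28 to 4.91). The richest induced cell held 1528 of 4206 UMIs, and without the richest cell of each library the levels were 236 and 861 CPM, 3.66-fold higher. Its level varied widely over cells, with 95th percentiles of 1410 and 5776 CPM and a median of 31.4 and 0 CPM, so the higher induced level lay in part of the cells.

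The other keratins of E21 were less alike in direction. Krt16 stood at 28.9 and 273 CPM, 9.44-fold higher (7.71 to 11.7), with 357 of the 872 induced UMIs in 1 cell and levels of 20.7 and 165 CPM without the richest cells, and Krt17 at 9441 and 14599 CPM, 1.55-fold higher. Krt6a stood at 708 and 901 CPM, 1.27-fold higher (1.21 to 1.34), and Krt79 at 13718 and 11357 CPM, 1.21-fold lower. Of the 6 keratins, 5 passed the filter in E21, and 2 were at least 2-fold higher and 0 lower, where 2.9% of 5724 genes were higher and 3.3% lower.

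E21 also held inner root sheath cells, which moved with these values. All 8 inner root sheath markers were at 20 CPM or more in both libraries, none was at 0, and they summed to 790 CPM in control and 6278 CPM in induced cells. Other lists moved too. The 15 sebaceous markers summed to 2071 and 553 CPM, with 12 and 6 at 20 CPM or more, and the 9 basal markers to 15590 and 9932 CPM. The 8 hair matrix markers rose, from 157 to 254 CPM. The median depth was 36342 UMIs in control and 15926 UMIs in induced cells of E21. The part of these differences in the keratin ratios of E21 was not tested. As a description by the gene itself, the 36 control and 42 induced cells of E21 with 3 or more Krt75 UMIs had 711 and 1293 CPM of Krt6a, 37.6 and 400 CPM of Krt16, 9455 and 16662 CPM of Krt17 and 13435 and 12143 CPM of Krt79. The 37 and 57 cells with no Krt75 UMI had 226 and 243 CPM of Krt6a and 12.98 and 88.1 CPM of Krt16.

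E24, led by Wfdc18, Krt6a and Cst6 with 98 control and 78 induced cells, had the highest Krt6a and Krt17 levels among the clusters with 30 or more cells in each library. Krt6a stood at 1466 CPM in its control cells and 3125 CPM in its induced cells, 2.13-fold higher (2.02 to 2.25). The median cell had 960 and 874 CPM and the 75th percentile was 2101 and 5680 CPM, so the libraries parted among the cells with more Krt6a. Krt17 stood at 20659 and 30075 CPM, 1.46-fold higher, and Krt79 at 7569 and 10488 CPM, 1.39-fold higher. Krt75 stood at 67.6 and 170 CPM and Krt16 at 43.4 and 144 CPM, with 92 and 276 UMIs of Krt75 in all. Both rested partly on single cells: the richest held 117 of the 276 induced Krt75 UMIs and 53 of the 59 control Krt16 UMIs. Without the richest cell of each library Krt75 stood at 59.6 and 109 CPM, under 2-fold, and Krt16 at 4.66 and 110.1 CPM. Of the 6 keratins, 5 passed the filter in E24, and 3 were at least 2-fold higher and 0 lower, where 5.13% of 5633 genes were higher and 4.15% lower. Without the richest cells 2 were at least 2-fold higher.

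Upper follicle markers stood higher beside the keratins in E24. All 8 were at 20 CPM or more in both libraries, and they summed to 17817 CPM in control and 43802 CPM in induced cells, of which Cst6 made up 15234 and 35335 CPM. Median depth was 11850 and 12973 UMIs. Krt1 and Krt10 went the other way, at 1284 and 81.8 CPM and at 1403 and 266 CPM, but differentiation markers as lists did not. The 8 spinous markers, Krt1 and Krt10 among them, summed to 8075 and 8846 CPM. The 12 granular markers summed to 884 and 4567 CPM, with 4 and 6 at 20 CPM or more, 3 and 2 at 0, and Asprv1 at 583 and 3666 CPM. The part of these differences in the keratin ratios was not tested.

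E29, whose leading genes Krt35 and S100a3 belong to the hair shaft, had less Krt17 and Krt79 in the induced library. In 66 control and 52 induced cells Krt17 stood at 1738 and 680 CPM, 2.56-fold lower, and Krt79 at 89.5 and 22.4 CPM, 4.0-fold lower (the interval of induced over control was 0.154 to 0.388). Krt75 stood at 73.3 and 36.9 CPM, but a single cell held 129 of the 136 control UMIs and another 31 of the 38 induced UMIs. Without the richest cell of each library it stood at 3.82 and 6.91 CPM, under the filter, so Krt75 gave no direction here. Krt79 without its richest cells stood at 48.6 and 19.6 CPM, still at least 2-fold lower. Of the 6 keratins, 3 passed the filter in E29, and 2 were at least 2-fold lower and 0 higher, where 5% of 6003 genes were lower and 4.76% higher. Krt16 stood at 12.9 and 25.3 CPM, with a mean under the filter. Marker levels moved with these values. The 8 outer root sheath markers summed to 858 and 426 CPM, with 3 and 2 of them at 20 CPM or more and 0 absent. Lhx2 made up 675 CPM of the control sum, while the highest in induced cells was Dapl1 at 212 CPM, so the lower sum rested on Lhx2. The 8 hair matrix markers, all at 20 CPM or more, summed to 1068 and 1733 CPM. The 6 keratins made up 35.5% and 4.54% of the keratin UMIs of E29, while all keratins made up 0.539% and 1.70% of its UMIs. The part of this difference in the ratios was not tested. The Krt79 level of its induced cells was below that of induced fibroblast-like cells.

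**Figure D3:**
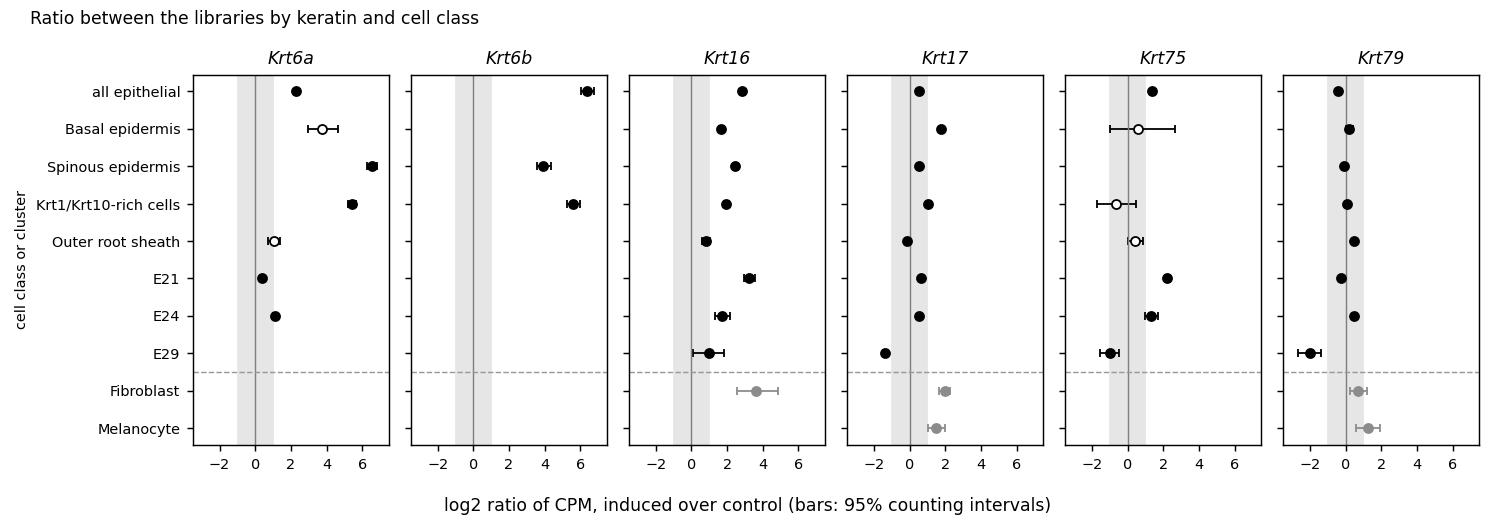
Log2 ratio of the level in the induced over the control library (horizontal axis) for each of the 6 keratins by cell class or cluster, with 95% counting intervals; open circles have under 20 CPM in both libraries, ratios with under 4 UMIs in either library are left out, grey points are cells not known to make these keratins and the grey band marks less than 2-fold. Krt16 lies right of 0 in every group drawn, while Krt79 lies on both sides.

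The transcript that spans miR-200b did not stand at one level across the induced library. Gm13648 stood at 721 CPM in induced basal cells, 660 CPM in E9, 464 CPM in spinous, 439 CPM in outer root sheath and 216 CPM in granular cells. In the induced cells of E21 and E24 it stood at 57.9 and 35.05 CPM, compared with 4.87 and 6.62 CPM in their control cells and 37.3 CPM in induced fibroblast-like cells. The transcript is a count of polyadenylated RNA and not of the mature microRNA.

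The place of each keratin's transcripts, as the share of its UMIs over all epithelial cells, changed for Krt6a. In the control library E21 and E24 held 52.9% and 40.3% of Krt6a UMIs, and the spinous class 2.10%. In the induced library E21 and E24 held 9.38% and 16.6%, and the spinous and granular classes held 33.1% and 30.4%. Among epithelial cells 0.253% (control) and 3.12% (induced) were granular, and 10.8% and 8.34% were spinous. Of the induced Krt6b UMIs 82.3% lay in the granular class and 15.1% in the spinous class. The 62 control Krt6b UMIs are too few, and too much from 1 cell, to place. Krt16 UMIs lay mostly in the spinous class in both, with 85.1% and 53.8%, and E9 held 26.7% of the induced ones.

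Krt17 was the most widely spread. The outer root sheath held 30.0% of its control UMIs and 12.96% of its induced UMIs, and the basal class 1.88% and 9.84%. These shares carry the numbers of cells in each class as well as their levels: the outer root sheath made up 33.2% and 21.5% of epithelial cells (control, induced) and the basal class 13.96% and 28.9%. Counted over cells, the richest 5% of epithelial cells held 47.7% and 45.4% of Krt17 UMIs, compared with 99.4% and 86.6% for Krt6a, 93.4% and 73.7% for Krt16, and 73.1% and 86.3% for Krt79.

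**Figure D4:**
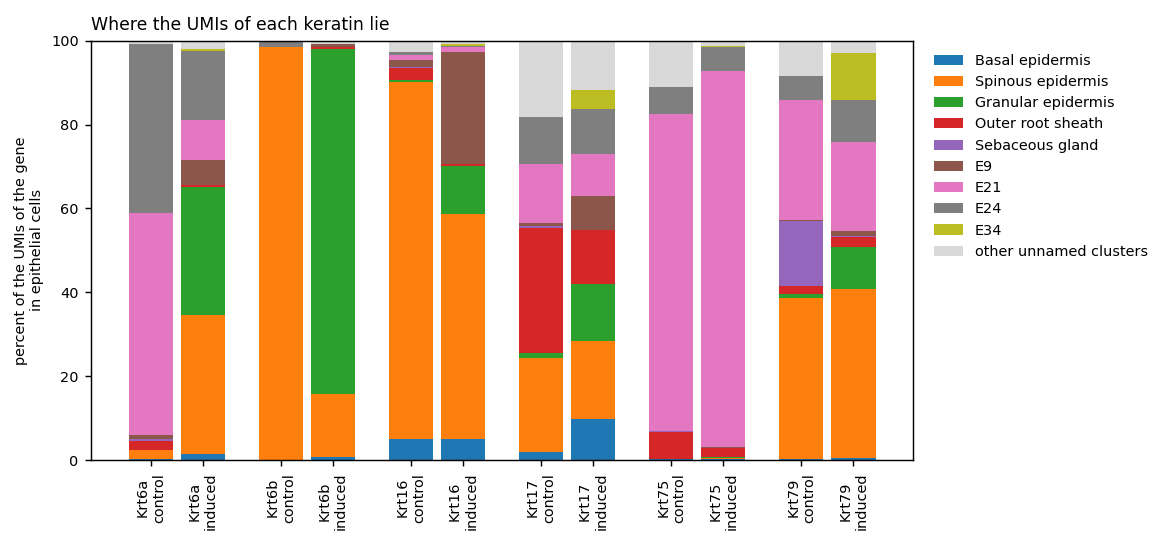
Percent of the UMIs of each keratin (vertical axis, 0 to 100) that lie in each class or cluster of the epithelial cells, for the control and induced library; grey stands for the other unnamed clusters. E21 and E24 hold most Krt6a UMIs of the control library, and the spinous and granular classes most of the induced library; the control granular class had 10 cells.

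In single cells, Krt17 was frequent with or without Krt6a, whereas Krt16 was more frequent beside Krt6a in the induced library. Among thinned control epithelial cells with a Krt6a UMI (108 of 3907), 97.2% also had Krt17, against 74.0% of cells without Krt6a, and 3.70% had Krt16, against 4.71%. Among the 400 of 3839 induced cells with a Krt6a UMI, 94.0% had Krt17 and 48.2% (43.3% to 53.3%) had Krt16, against 83.0% and 16.6% of cells without Krt6a. Krt6b UMIs in 58 induced cells came with Krt6a in 65.5% and with Krt16 in 63.8%, against 9.57% and 19.2% of cells without Krt6b, and with Krt75 in 0, with an exact upper limit of 6.16%. Krt75 came with Krt6a in 29.4% of 34 control and 58.5% of 53 induced cells, against 2.53% and 9.75% of cells without Krt75. Krt79 was found in 61.8% and 77.4% of those Krt75 cells, against 34.5% and 21.8%. Detection at 2000 UMIs misses low levels, and UMIs of background, as in fibroblast-like cells, count in these shares.

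Across the epithelial clusters with at least 30 cells, 19 in each library, the keratins' log2 levels ran together in different pairs. The Pearson correlation was 0.37 in the control and 0.95 in the induced library for Krt17 with Krt79, 0.18 and 0.75 for Krt6a with Krt16, and 0.74 and 0.47 for Krt6a with Krt75. The clusters of a library share its depth and its background, and the clusters differ between libraries, so these values are a description. By the same measure the genes outside the 6 most like Krt16 in the control library were Oas1f (0.90 in control, 0.90 in induced clusters), Them5 (0.89 and 0.84) and Chit1 (0.89 and 0.82). For Krt6b they were Serpinb12 (0.94 and 0.88), Chit1 (0.94 and 0.68) and Casp14 (0.93 and 0.83), and for Krt79 Lratd1 (0.89 and 0.89), Abca12 (0.87 and 0.74) and Klk7 (0.85 and 0.88). For Krt6a they were Celsr2 (0.93 and 0.62), Ptprf (0.91 and 0.24) and Afdn (0.90 and 0.54), for Krt17 Atp13a2 (0.92 and 0.51), Epcam (0.90 and 0.80) and Kank1 (0.90 and 0.56), and for Krt75 Slc40a1 (0.87 and 0.65), Atp6v1g1 (0.85 and 0.52) and Bmpr2 (0.84 and 0.85).

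Other keratins and genes of the activated keratinocyte gave a mixed picture over all epithelial cells. Of 16 partner and other keratins, 8 passed the filter, 2 were at least 2-fold higher and 1 at least 2-fold lower, beside 2.24% and 4.23% of all genes, the shares against which the counts over all epithelial cells below are also read. Krt78, a keratin of differentiating epidermis, stood at 7.64 and 69.4 CPM and Krt77 at 205 and 552 CPM, while Krt15, a basal and stem cell keratin, stood at 3794 and 504 CPM. Krt14, the main basal type I keratin, stood at 9788 and 8751 CPM. Of the 27 activated keratinocyte genes, 7 passed, 4 were at least 2-fold higher and 0 lower, with a median log2 ratio of 1.79 against -0.105 over all genes. The cornified envelope gene Sprr1b stood at 6.37 and 235 CPM and the alarmin S100a8 at 4.03 and 41.2 CPM, whereas the interleukin-1 receptor antagonist Il1rn stood at 15 and 29 CPM and the protease inhibitor Stfa3 at 2004 and 2900 CPM. Sprr1b, S100a8, Il1rn and Krt78 had under 20 CPM in control and passed the filter through their induced level. The counts and the median above therefore depend in part on the filter.

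Early response and antioxidant genes were counted in the same way. Of 14 AP-1 and early response genes, 13 passed, 0 were at least 2-fold higher and 1 at least 2-fold lower, beside 2.24% and 4.23% of all genes. In the basal class 7 of 13 were at least 2-fold lower, where 3.02% of genes were. In E24 the direction was the other, with 2 of 13 at least 2-fold higher and 0 lower, where 5.13% and 4.15% of genes were, a median log2 ratio of 0.55 against -0.10, and summed levels of 4817 and 6599 CPM. The AP-1 subunit Fosb stood at 200 and 74.8 CPM over all epithelial cells, Atf3 at 615 and 343 CPM, Nfkbia at 502 and 567 CPM and Irf1 at 28.8 and 33.9 CPM. Of 12 genes of the NRF2 pathway, an antioxidant response, 7 passed, 0 were at least 2-fold higher and 1 lower, beside the same shares. Gclc, an enzyme of glutathione synthesis, stood at 60.4 and 22.9 CPM and Gstm1 at 76.1 and 40.1 CPM, while Cbr3 stood at 49.2 and 62.2 CPM and Nfe2l2 itself at 61.3 and 71.9 CPM.

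Among 15 desmosome and keratin anchor genes, which tie the filaments to cell junctions, 13 passed, 1 was at least 2-fold higher and 0 lower, beside 2.24% and 4.23% of all genes. Dsc1, a desmosomal cadherin of upper layers, stood at 17.03 and 61.7 CPM and the plakin Ppl at 90.1 and 181 CPM, and Dsg1a and Dsc3 were close to equal at 121 and 117 CPM and at 269 and 288 CPM. Among 14 regulators tied to these keratins, 8 passed, 0 were at least 2-fold higher and 1 lower, beside the same shares. The stem cell receptor regulator Lrig1 stood at 79.7 and 32.5 CPM and Egfr at 37.9 and 16.7 CPM, while the ligand Hbegf stood at 52.0 and 57.7 CPM and the transcription factor Klf4 at 303 and 416 CPM. In E24 the direction of the regulators was the other, with 4 of the 11 that passed at least 2-fold higher and 0 lower, where 5.13% and 4.15% of genes were, and a median log2 ratio of 0.73 against -0.10. In the spinous class 10 activated keratinocyte genes passed and 4 were at least 2-fold higher and 0 lower, where 2.77% and 4.38% of 4845 genes were, among them Sprr1b at 29.4 and 534 CPM. All these counts describe the lists in these libraries and carry no test.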

How the data were processed

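UMI counts per gene and barcode from 2 droplet libraries (10x Genomics Single Cell 3′ v3.1, per the labels) were used as deposited. The counts were made with Cell Ranger 6.0.0 on mm10, per the submitters' processing notes; cell-calling settings are not given in the sources used here. The 6 keratins, the gene lists and the class markers were chosen with earlier results of these data known, and naming details were set after clusters had been seen.

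Barcodes with at least 1000 UMIs, 500 genes and under 15% mitochondrial UMIs were kept (5178 and 5258). The 7% with the highest Scrublet scores were removed (362 and 368), because the automatic threshold marked 3 and 1 cells. Cells were clustered together (scanpy 1.11.5, Leiden with leidenalg 0.10.2, 2000 variable genes, 30 components, 15 neighbours) without the 6 keratins, at resolution 1, and epithelial clusters again at resolution 2. Clusters with over 3000 CPM of other keratins were called epithelial. A class name needed 3 markers in 25% of cells and 1.5-fold raised with 20 CPM added; Krt5 was needed for basal, and a tie left a cluster unnamed. Clusters also stayed unnamed where their 10 leading genes held more markers of another class, or where depth was low.

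Summed counts were scaled to CPM with exact Poisson intervals, ratios have conditional binomial intervals and shares Clopper-Pearson intervals (95%). The limit for a count of 0 is 3 counts over the group. With 1 library per group no test between groups was made; 3′ UMI counts do not scale with transcript length. A gene was called at 2-fold with 5 CPM added and a mean of 20 CPM. A gene under 20 CPM in 1 library can pass that mean through the other, so the filter and the call are not independent. The ratio and thinning steps were tested on simulated data. Genes named beside the 6 were the 3 most correlated with each in the control library and, per list, the 2 highest and 2 lowest ratios; others were named after their values were seen. Gene positions and 3′ untranslated regions came from GENCODE vM21 (GRCm38), in which 32158 of 32285 gene identifiers were found; the region of the transcript with the longest coding part was used.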

Additional observations from a re-analysis of the deposited data

Results flagged for a closer look

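The ratio of Krt17 between the libraries differed between cell classes: the log2 ratio of induced over control was 1.79 in basal cells, 0.53 in the spinous class and -0.12 in the outer root sheath. The spinous value was -0.43 without the control cluster E15 and 5.63 without E17, so it gave no single direction. Krt79 also went different ways, with log2 ratios of 0.20 in basal cells, 0.46 in the outer root sheath and -0.084 in the spinous class. With 1 library per group, these differences between classes were not tested. Without cluster E18, which had 0 control cells, the Krt79 log2 ratio of the outer root sheath was -0.05, and without the control cluster E1 that of basal cells was -0.43. Krt79 of basal cells was below the level of fibroblast-like cells in both libraries.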

How the results depend on the processing

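No paired analysis was possible because each group was 1 library. Over all epithelial cells, and in the spinous class, Krt6a and Krt16 were higher in the induced library under every alternative run. Krt79 over all epithelial cells turned to a log2 ratio of 0.025 when cells were weighted equally and 0.10 without E17. Spinous Krt79 turned to 3.73 with library-centred clustering, 0.0048 with doublets kept, 1.51 with the stricter cell filter, 0.13 with cells weighted equally, 0.086 in Krt1 and Krt10-rich cells and 7.65 without E17; the count of keratins at least 2-fold higher there was 5 with library-centred clustering, the stricter filter or without E17. Without E15 spinous Krt17 turned to -0.43, and spinous Krt79 moved to -1.05, at least 2-fold lower. Spinous Krt75, with 1 and 11 UMIs, turned to -1.67 with library-centred clustering, -0.71 with doublets kept, -1.59 with the stricter filter and -0.66 in Krt1 and Krt10-rich cells. Basal Krt79 turned to -0.44 with doublets kept and -0.0077 with cells weighted equally, and basal Krt16 to -0.062 without E3, where the count was 1. Outer root sheath Krt17 turned to 0.026 at resolution 1 and 0.0074 with cells weighted equally, Krt79 there to -0.052 without E18, and Krt6a there to -0.69 at resolution 3 and -0.26 with doublets kept. With no minimum level, 9 activated keratinocyte genes and 1 regulator were at least 2-fold higher, and with 1 CPM added 2 desmosome genes were. The cause of these changes was not tested. Leaving out E3, E17, E18, each other cluster in turn, the granular cluster or the low-depth clusters, the richest cell of each library, and the Krt1 and Krt10 rule, were chosen after seeing the data. With 1 library per group leaving out a replicate was not possible, and neither the spread between animals nor that between libraries is known.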

Other observations

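E34, an unnamed cluster of 45 induced cells and 0 control cells led by Krt79, Alox12e and Dpysl3, had 20048 CPM of Krt79 and 22152 CPM of Krt17, and the 6 keratins made up 80.1% of its keratin UMIs. Krt16 stood at 337 CPM and Krt6a at 166 CPM in it, and Krt6b had 0 UMIs. Its Sostdc1 level was 2167 CPM and its Cst6 level 81.5 CPM, compared with 35335 CPM of Cst6 in induced E24. E34 held 11.03% of the Krt79 UMIs of induced epithelial cells.

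E30, an outer root sheath cluster with 87 control and 21 induced cells, had 9079 CPM of Krt17 in its control cells with 1.21 CPM of Krt16 and 348 CPM of Krt79. E14, led by collagen genes with 25 control and 209 induced cells and a median of 1071 UMIs, gave levels that depended on a few deep cells. Of its 515365 induced UMIs 296884 came from 9 cells of at least 2000 UMIs, and 1 cell held 249 of its 361 Krt6a UMIs. Its 200 induced cells under 2000 UMIs had 494 CPM of Krt6a and 741.5 CPM of Krt16, and the median induced cell had 0 CPM of Krt6a and 873 CPM of Krt16, which is about what 1 UMI gives at this depth.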
